A study of Mus musculus with 16 samples.

Results

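The apolipoprotein gene promoters examined here were those of Apoa1, Apoc3, Apoa4, Apoa5, Apoe, Apoc1, Apob, Apoh, Apoa2 and Apom. They were followed in Promoter Capture Hi-C, which lists the stretches of chromatin that lie close to gene promoters. The members were the gene starts of these 10 genes in the GENCODE annotation of mouse build mm9, and they fell on 9 of 18165 bait fragments. A bait is a HindIII restriction fragment that was captured for the promoter it holds. Apoa1 and Apoc3 lie on the same bait and cannot be told apart, so their contacts are given once. All interactions with an end on these 9 baits were taken, 304 of 247177 distinct pairs of fragments.

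The mice were male wild type C57BL/6, an inbred laboratory strain, labelled as 8 week old and fed ad libitum. Per the methods, mice of that age were then held under 12 h of light and 12 h of dark for 2 weeks before their livers were taken. Livers came from ZT0 (lights on), ZT6, ZT12 (lights off) and ZT18, where ZT is the number of hours after lights on. At every timepoint 3 pools were made from 2 livers each, and 1 of the pools was run on 2 lanes, so the series counts 16 samples. The authors merged the pools before they called interactions, so each timepoint has 1 list, with no replicate error and no test of a difference between timepoints. A value is a CHiCAGO score, which rises as the reads of a pair exceed those expected at that distance, and pairs with a score under 5 were not listed. Absence from a list is therefore not a measurement of no contact. RNA was not analysed here, so the tissue label was not checked against marker genes.

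Apolipoproteins are the protein part of the particles that carry lipids in blood, and the liver secretes most of them. Apob is the structural protein of very low density lipoprotein, Apoa1 and Apoa2 are the main proteins of high density lipoprotein, and Apoe is the ligand by which liver receptors take up particle remnants. Apoc3 slows and Apoa5 favours the clearance of triglyceride by lipoprotein lipase. Apoa1, Apoc3, Apoa4 and Apoa5 form a gene cluster on chromosome 9, Apoe and Apoc1 belong to another on chromosome 7, and the other members lie alone.

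The promoters of Apoa4, Apoa5 and Apob, and the fragment with the highest score at Apoa4, are shown first. Apob (44.74) and Apoa4 (42.58) had the highest scores of the members, while Apoa5 reached 24.81. Of the 10 genes, 8 had RefSeq promoter windows (250 bases before to 50 after a start, build GRCm38.p6), 12 windows in all, and each matched mm9 at a single place. Apoc3 and Apoc1 were not matched. Capitals mark matches to 5 motifs searched on both strands. Of these, CAAAGTCCA and CAAAGTTCA are forms bound by HNF4A, the liver nuclear receptor, and AGGTCA is the core shared by the sites of many nuclear receptors. The E-box CACGTG is bound by clock and other factors of the helix-loop-helix class, and TATAAA is the TATA box that places the start of transcription. No motif contains another. Coordinates are mm9 and all 4 sequences are on the plus strand.
Apoa4 promoter, chr9:46048677-46048976: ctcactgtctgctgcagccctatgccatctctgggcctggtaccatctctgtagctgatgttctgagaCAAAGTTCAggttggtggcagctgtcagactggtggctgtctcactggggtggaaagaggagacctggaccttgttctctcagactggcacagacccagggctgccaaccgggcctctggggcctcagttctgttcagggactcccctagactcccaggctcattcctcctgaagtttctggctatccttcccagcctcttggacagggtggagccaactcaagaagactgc
Apoa5 promoter, chr9:46076441-46076740: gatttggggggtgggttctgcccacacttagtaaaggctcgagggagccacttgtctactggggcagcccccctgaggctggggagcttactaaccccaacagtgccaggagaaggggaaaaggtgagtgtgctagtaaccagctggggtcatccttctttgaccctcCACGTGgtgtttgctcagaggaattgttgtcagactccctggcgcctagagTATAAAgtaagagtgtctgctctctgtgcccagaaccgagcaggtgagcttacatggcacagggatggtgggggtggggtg
Apob promoter, chr12:7984233-7984532: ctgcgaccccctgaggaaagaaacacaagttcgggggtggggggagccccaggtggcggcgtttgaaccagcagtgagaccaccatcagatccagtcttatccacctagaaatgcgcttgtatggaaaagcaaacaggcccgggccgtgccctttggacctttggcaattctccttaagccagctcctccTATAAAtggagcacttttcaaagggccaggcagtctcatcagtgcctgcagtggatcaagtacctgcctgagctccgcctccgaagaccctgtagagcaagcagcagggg
centre of the fragment with the highest score at Apoa4, chr9:45804529-45804828: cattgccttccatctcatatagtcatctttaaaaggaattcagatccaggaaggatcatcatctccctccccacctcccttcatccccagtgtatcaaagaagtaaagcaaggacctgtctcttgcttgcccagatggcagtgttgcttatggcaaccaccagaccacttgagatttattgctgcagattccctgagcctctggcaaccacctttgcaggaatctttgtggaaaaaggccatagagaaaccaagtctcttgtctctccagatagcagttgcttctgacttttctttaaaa

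The Apoa4 window held CAAAGTTCA 182 bases before the start, letters found in 0.39% of 32851 promoter windows. The Apoa5 window shown held CACGTG 82 bases and TATAAA 31 bases before the start. In the other Apoa5 window, whose RefSeq start is also the GENCODE start, the same letters lay 107 and 56 bases before it. CACGTG was in 7.15% and TATAAA in 13.6% of all windows. The Apob window held TATAAA 60 bases before the start. These distances are to the RefSeq start of the window, which for the windows shown differs from the GENCODE start that assigned the bait. For Apoa4 these are positions 46048927 (RefSeq) and 46048779 (GENCODE), for Apoa5 46076691 and 46076716, and for Apob 7984483 and 7984454. Over the 8 genes, TATAAA was found for Apoa2, Apoa5, Apob and Apoe. At Apoa2 it lay 212 bases before the start. At Apoe only 1 of the windows had it, on both strands at overlapping letters, 96 and 100 bases before the start of that window. AGGTCA was found for Apoa2 and Apoh (16.3% of all windows) and CAAAGTCCA for none (0.475%). Some of the genes had several windows, so counts of genes are not comparable with these shares of windows. Neither AGGTCA match lay on a member bait. That of Apoa2 was in a window on the bait of Nr1i3, and that of Apoh on a fragment that is not a bait. The distal fragment of Apoa4 held no match in its central 300 bases.

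The apolipoprotein baits had many contacts. Their median was 39 distinct contacts over the 4 lists, against 9 over all baits, and 8 of the 9 baits lay above the median of all baits, as did 48.5% of all baits. The range ran from 2 contacts at the bait assigned to Apoh to 78 at Apoa4, and 281 baits had more than Apoa4. The members' pairs numbered 206 in the ZT0 list, 196 in the ZT6 list, 227 in the ZT12 list and 228 in the ZT18 list. The whole lists held 146262, 154775, 151529 and 151347 pairs in the same order, so the list with the fewest member pairs, ZT6, was the longest. Of the 304 pairs, 146 (48%, with a 95% Wilson interval from 42.5 to 53.6% for counting error only) were in every list, against 32.5% of all pairs. A further 77 pairs, 25.3%, were listed at 1 timepoint only, against 35.2% of all pairs. No pair joined different chromosomes, and the median distance between fragment midpoints was 126 kb (109 to 149 kb), against 162 kb over all pairs.

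The members' scores were high, and the share of pairs listed at all 4 timepoints moved with the score. A score of 10 at any timepoint was reached by 124 of 304 pairs, 40.8%, against 21.5% of all pairs. Among pairs whose highest score was 10 or more, 93.5% of the members' pairs and 89.7% of all pairs were listed at all 4. From 7 to below 10 the shares were 38.6% and 40.3%, and from 5 to below 7 they were 2.73% and 3.91%. The members differed among themselves from 7 to below 10, where 1 of 11 pairs of Apoe (9.09%) and 5 of 7 pairs of Apob (71.4%) were listed at all 4. No test was made of these differences. The contacts of 1 bait share its reads, so the intervals are narrower than the true uncertainty.

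**Figure D1:**
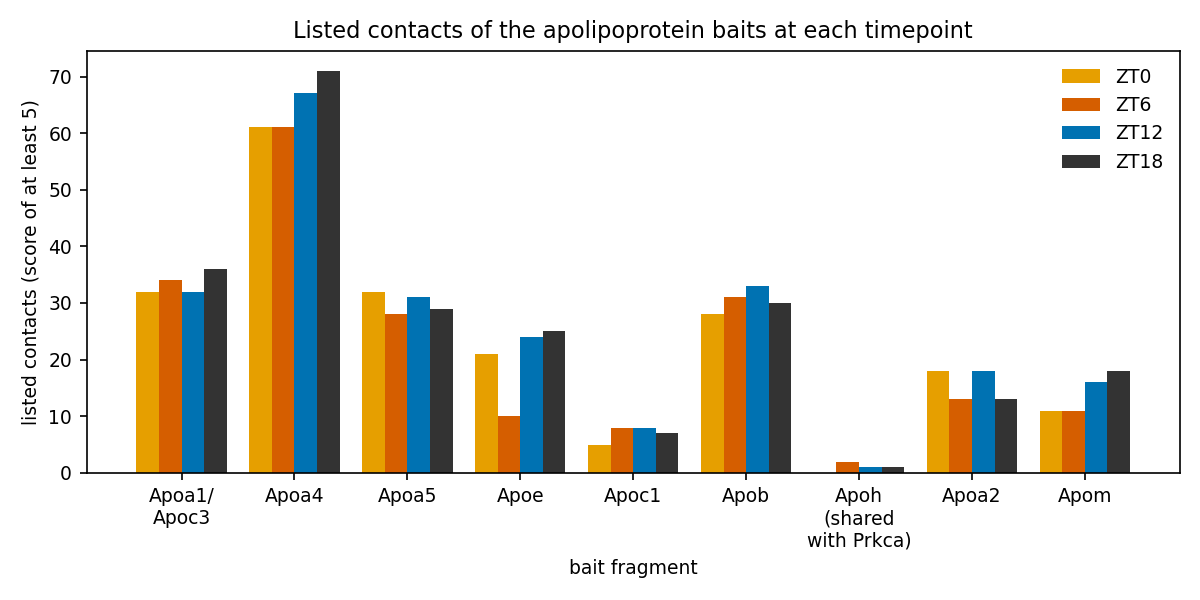
Bars give the number of listed contacts (score of at least 5) of each apolipoprotein bait at ZT0, ZT6, ZT12 and ZT18, with 1 merged list per timepoint and no error. Apoa4 has the most contacts at every timepoint, from 61 to 71, and Apoe has 10 at ZT6 against 21 to 25 in the other lists.

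Apoa4 encodes an apolipoprotein of lipid absorption and high density lipoprotein, and its bait (chr9:46048545-46053088, shared with the start of Gm10680) had the most contacts. It was listed with 61, 61, 67 and 71 contacts at ZT0, ZT6, ZT12 and ZT18, and 52 of 78 distinct contacts (66.7%) were present at all 4. Of the 78, 74 lay on the side of lower coordinates, where the gene Sik3, a salt-inducible kinase, is the neighbour of the cluster. Scores were higher in 2 stretches, a far and a near one, than between them (median highest score 17.4 and 12.6, against 7.62). The limits of the stretches were set after the values were seen, by runs of Apoa4 contacts listed at all 4 timepoints. Pairs with high scores were more often listed at all 4, so higher scores inside the stretches follow in part from this rule.

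The far stretch of Apoa4 was an unbroken run of 27 fragments, 122 kb long (chr9:45713049-45834627), all listed at all 4 timepoints and lying 217 to 336 kb from the bait. It holds the starts of Pcsk7, Rnf214, Sidt2, Tagln, Pafah1b2 and Sik3. The highest score was to a fragment between the starts of Pafah1b2 and Sik3 (chr9:45804236-45805121, whose centre is printed above), with scores of 39.45, 42.58, 36.41 and 40.64 at ZT0, ZT6, ZT12 and ZT18. The next fragment (chr9:45805122-45819229) had 30.13, 30.62, 31.23 and 41.51 in the same order, which put it level with the first at ZT18 only. A further intergenic fragment, chr9:45819230-45820623, had 34.88, 35.53, 39.56 and 41.07.

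Within the same run, the bait of Pafah1b2, a subunit of an enzyme that breaks down platelet-activating factor, had scores with Apoa4 of 26.42, 27.21, 29.47 and 35.31 from ZT0 to ZT18. The fifth highest pair, chr9:45801029-45802605, had 25.68, 26.11, 21.26 and 33.83. The bait of Sik3 itself was highest at ZT0 and lowest at ZT18, with 28.89, 26.32, 24.72 and 24.35 from ZT0 to ZT18. By the labels, the bait of Sidt2 and Tagln had a higher score in each later list (8.12, 10.09, 15.98 and 17.38), and that of Pcsk7 and Rnf214 had 9.17, 8.9, 9.36 and 13.2. The near stretch (chr9:45984159-46025004, 40.8 kb, inside Sik3) held 14 contacts of Apoa4, 12 of them at all 4 timepoints, with scores from 5.74 to 29.57. Between the stretches, 29 contacts over 150 kb of the Sik3 gene had scores of at most 12.26, and 11 of them were listed at all 4.

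The bait of Apoa1 and Apoc3 (chr9:46033463-46045524) had 32, 34, 32 and 36 contacts at ZT0, ZT6, ZT12 and ZT18. Of 47 distinct contacts, 23 (48.9%) were listed at all 4, and 40 lay towards lower coordinates. Its highest score was with the Pafah1b2 bait, 243 kb away, at 26.14, 26.75, 20.84 and 30.09 in order of time, lowest at ZT12 and highest at ZT18. The Sik3 bait gave 15.22, 17.52, 19.06 and 17.14, and the adjoining intergenic fragment (chr9:45819230-45820623) gave 15.04, 17.46, 14.08 and 13.08. The bait of Sidt2 and Tagln, a lysosomal membrane protein and an actin-binding protein, gave 9.64, 17.22, 9.84 and 15.49, so that the scores at ZT6 and ZT18 were well above those at ZT0 and ZT12. The bait of Pcsk7 and Rnf214 gave 10.14, 7.69, 7.26 and 9.41.

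The same far stretch took 22 of the 47 contacts of Apoa1 and Apoc3, and 11 of these were listed at all 4 timepoints. For Apoa4 all 27 were, by construction, because the stretch was defined as its longest run of such fragments. The near stretch took 12 more, with a median highest score of 10.7 against 12.6 for Apoa4. Between the stretches the Apoa1 and Apoc3 bait had 4 contacts, none at all 4 timepoints and none above a score of 7.01.

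Apoa5, on a bait shared with the start of Zfp259 (chr9:46075999-46082090), had 32, 28, 31 and 29 contacts in order of time, and 21 of 40 (52.5%) were listed at all 4. The far stretch took 23 of the 40 contacts and the near stretch only 4, with scores of at most 7.1. Its contact with the Pafah1b2 bait, 283 kb away, had scores of 16.89, 15.33, 16.6 and 24.81, highest at ZT18. Its contact with the bait of Pcsk7 and Rnf214, the former a proprotein convertase, had 20.15, 12.62, 14.57 and 18.2, highest at ZT0. A fragment inside Pafah1b2 (chr9:45791583-45791907) had 7.38, 9.63, 6.34 and 17.5, and an exonic fragment of Zfp259 (chr9:46084553-46085939) had 13.98, 11.91, 16.37 and 14.13. The Sidt2 and Tagln bait had 12.18, 10.44, 13.01 and 15.09 with Apoa5, and the Sik3 bait had 11.22, 7.86, 7.24 and 9.29.

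**Figure D2:**
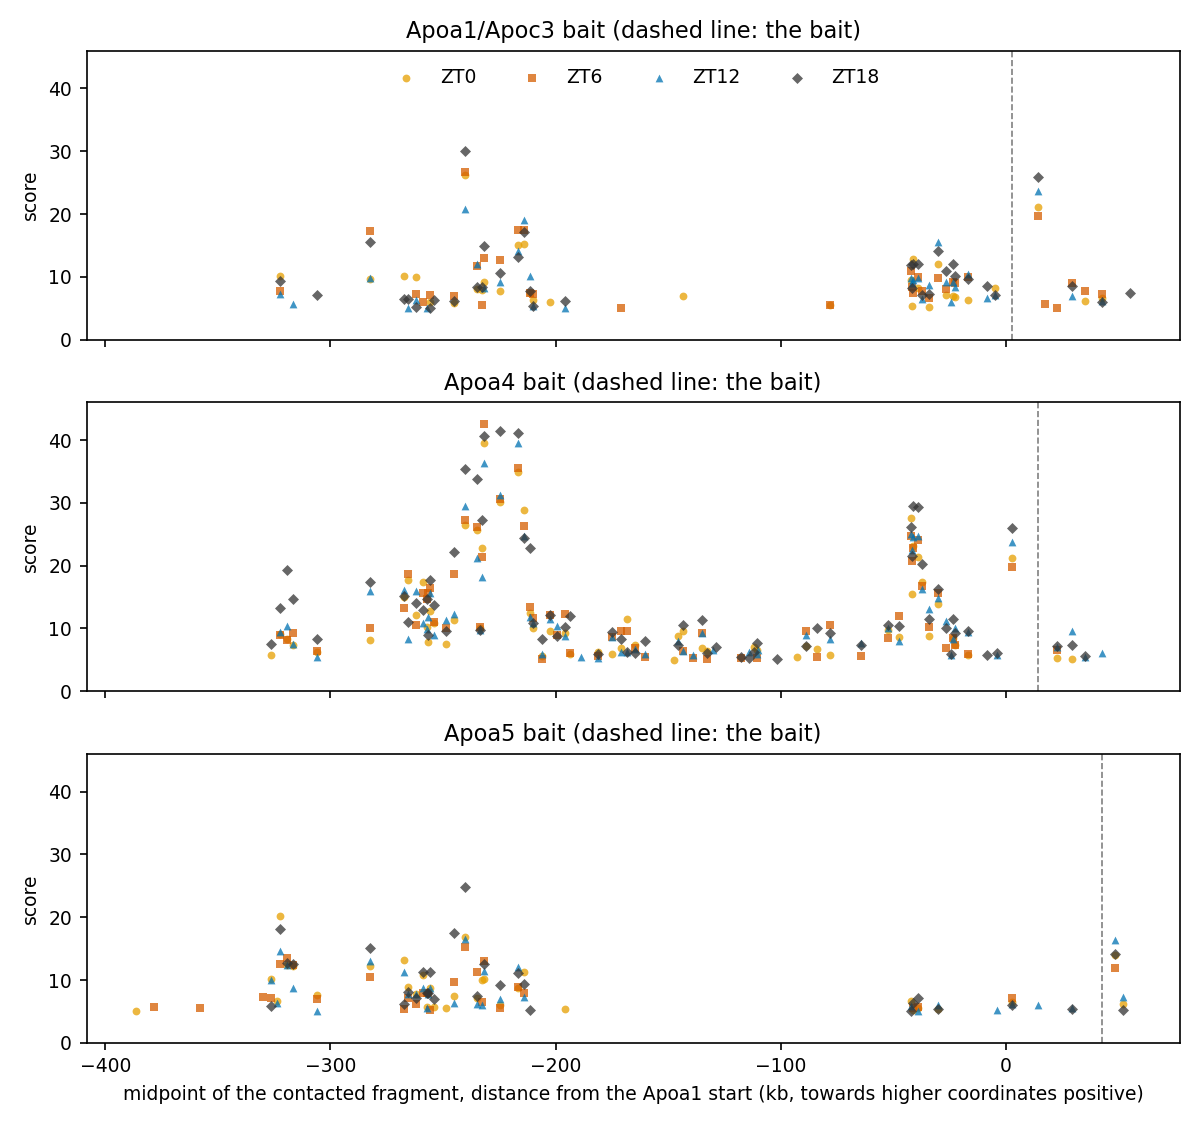
Each point is the score of a contacted fragment at a timepoint (vertical axis) against the distance of its midpoint from the Apoa1 start in kb (horizontal axis), with a panel for each bait of the Apoa1 cluster and a dashed line at the bait. Each of the 3 baits has its highest score in the far stretch around Pafah1b2 and Sik3, where Apoa4 reaches 42.58, and Apoa5 has only 4 contacts in the near stretch.

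Within the cluster, the promoters were listed with each other. The pair of the Apoa1 and Apoc3 bait with the Apoa4 bait, 11.3 kb apart, had scores of 21.18, 19.76, 23.72 and 25.96 in order of time. The Apoa1 and Apoc3 bait with Apoa5, 39.6 kb apart, had 6.56, 7.19, 6.18 and 5.99, close to the minimum at every timepoint. Apoa4 with Apoa5, 28.2 kb apart, was listed at ZT12 only, at 6.09. These were the only 3 pairs among member baits. Of the contacted fragments, 26 were shared by all 3 baits. Apoa4 had 43 fragments in common with the Apoa1 and Apoc3 bait, which is 91.5% of the contacts of the latter and 55.1% of those of Apoa4. With Apoa5 it shared 32, which is 41% of the contacts of Apoa4 and 80% of those of Apoa5. Among baits holding no member, likeness to Apoa4, measured as the share of the union of both sets of contacts, was highest for Sik3 (48 shared fragments, 50%), followed by Pafah1b2 (52 shared fragments, 47.7%). For Apoa1 and Apoc3 it was Pafah1b2 (35 fragments, 36.8%), and for Apoa5 it was Bud13, a splicing factor gene at 12.7 kb (34 fragments, 57.6%).

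Apob showed a different layout, with a single strong block of contacts in a region without annotated genes. Its bait (chr12:7983087-7985041) had 28, 31, 33 and 30 contacts in order of time, and 25 of 39 (64.1%) were listed at all 4. Of the 39 contacted fragments, 36 were intergenic, 36 lay towards lower coordinates, upstream of the gene, and 1 was a bait. That bait, of 1110057K04Rik at 231 kb, was not listed at ZT0 and had 9.04, 5.46 and 7.23 afterwards. Apob had 1 other bait within 250 kb, where the median bait had 7.

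An unbroken run of 11 fragments 53.4 to 80.6 kb upstream of Apob (chr12:7903084-7934808, 31.7 kb) was listed at all 4 timepoints. The highest pair of all members was in it, with the fragment at chr12:7914477-7915055. Its scores were 33.96, 39.91, 43.58 and 44.74 in order of time, higher in each later list by the labels. The other 4 of the 5 highest pairs were in the same run. The fragment at chr12:7916570-7917163 had 36.64, 37.17, 43.97 and 41.3, and chr12:7917164-7920585 had 34.74, 31.72, 39.88 and 36.18. The fragment at chr12:7915056-7916569 had 34.09, 38.14, 38.81 and 35.65, while chr12:7925613-7926527 stayed between 29.74 and 32.36. The first 2 of these pairs were lower at ZT0 and ZT6 than at ZT12 and ZT18, and the last had a span of scores smaller than the others. A further run of 9 fragments, 94.7 to 109 kb upstream, had scores from 5.25 to 13.78 and was also listed at all 4. The bait whose contacts were most like those of Apob was that of Gdf7, a growth factor gene at 324 kb, with 9 shared fragments (8.41% of the union).

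The Apoe bait (chr7:20283314-20285698) had the most variable list. It had 21, 10, 24 and 25 contacts at ZT0, ZT6, ZT12 and ZT18, and 6 of 44 distinct contacts (13.6%, 6.4 to 26.7%) were listed at all 4, while 23 were listed at 1 timepoint only. Its ZT6 list held 22.7% of its 44 contacts, where 62.6% of all pairs were listed at ZT6, a comparison chosen after these values were seen. Among the 4811 baits with at least 20 contacts, 12.5% had a longest list of at least 2 times the contacts of their shortest, a rule chosen after the values of Apoe were seen. Of the 7 apolipoprotein baits of that size, Apoe was the only one. Of the 23 contacts at a single timepoint, 5 were in the ZT0 list, 1 in the ZT6 list, 6 in the ZT12 list and 11 in the ZT18 list, with scores between 5.01 and 8.05.

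The 6 contacts of Apoe found in every list lay within 40.9 kb of its bait. The strongest was with the bait of Apoc2 and Apoc4, 18.9 kb away, Apoc2 being the activator of lipoprotein lipase, with 31.59, 22.72, 32.46 and 34.54 in order of time. An adjoining fragment with an exon of Apoc2 (chr7:20250885-20263328) had 22.04, 18.17, 23.95 and 24.04. The bait of Clptm1, a membrane protein gene, had 13.02, 13.68, 21.24 and 15.91. The bait of Tomm40, part of the mitochondrial import pore, had 11.94, 10.19, 11.93 and 14.14, and a fragment with an exon of Apoc1 (chr7:20269529-20275675) had 9.82, 8.82, 9.69 and 13.52. Of these 5, all but the Clptm1 pair had their lowest score at ZT6. The sixth, an intergenic fragment 15.8 kb away, had 8.01, 5.49, 6.94 and 7.86.

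The more distant contacts of Apoe had scores of at most 10.66, and many of them joined other promoters. The strongest were listed at ZT12 and ZT18 only. They were with the baits of Lrrc68, 134 kb away (9.04 and 10.66), Dmpk, a muscle kinase gene 617 kb away (9.83 and 9.76), and Cblc, a ubiquitin ligase gene 98.5 kb away (6.92 and 8.99). Of its 44 contacts 22 (50%) were with baits, against 21.7% over the 9 member baits and 15.4% of all pairs. Apoe had 22 other baits within 250 kb. The baits of Bcl3 and Relb, both of the NF-kappaB system, were listed at 3 and 2 timepoints. Bcl3 had 6.04, 6.29 and 7.01 at ZT0, ZT12 and ZT18, and Relb had 8.54 at ZT0 and 6.31 at ZT12. Foxa3, a liver transcription factor gene 676 kb away, was listed at 7.38 at ZT12 and 5.54 at ZT18. A single contact at 31468 kb, with the bait of 2310044H10Rik and Fam71e1, was listed at ZT18 at 5.63. The Apoc2 and Apoc4 bait was also the one most like Apoe in its contacts, with 18 shared fragments (31% of the union), followed by Clptm1 with 19 (28.8%).

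Apoc1, whose product slows the uptake of particle remnants, lies on the fragment next to that of Apoe (chr7:20275676-20283313). No list held a pair of adjoining fragments, so a contact of these 2 promoters could not be seen. Apoc1 had 5, 8, 8 and 7 contacts in order of time, 11 distinct ones, of which 9 were with baits and 9 were shared with Apoe. At ZT6, where Apoe had its shortest list, Apoc1 had 8 contacts, the same number as at ZT12. The Apoc2 and Apoc4 bait had its highest score with Apoc1 at ZT6 (14.14, 19.09, 13.68 and 15.33), the timepoint at which its score with Apoe was lowest. The Tomm40 bait had 14.97, 17.11, 14.2 and 14.09, also highest at ZT6, and the Clptm1 bait had 12.19, 13.46, 13.32 and 10.06. The next pair, with Irf2bp1 at 686 kb, was listed at ZT0 only, at 8.78. An exonic fragment of Apoc2 followed, listed at ZT6 at 8.29 and at ZT18 at 5.34. Most like Apoc1 was the bait of Fosb, an immediate early gene at 380 kb, with 7 shared fragments (38.9% of the union).

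**Figure D3:**
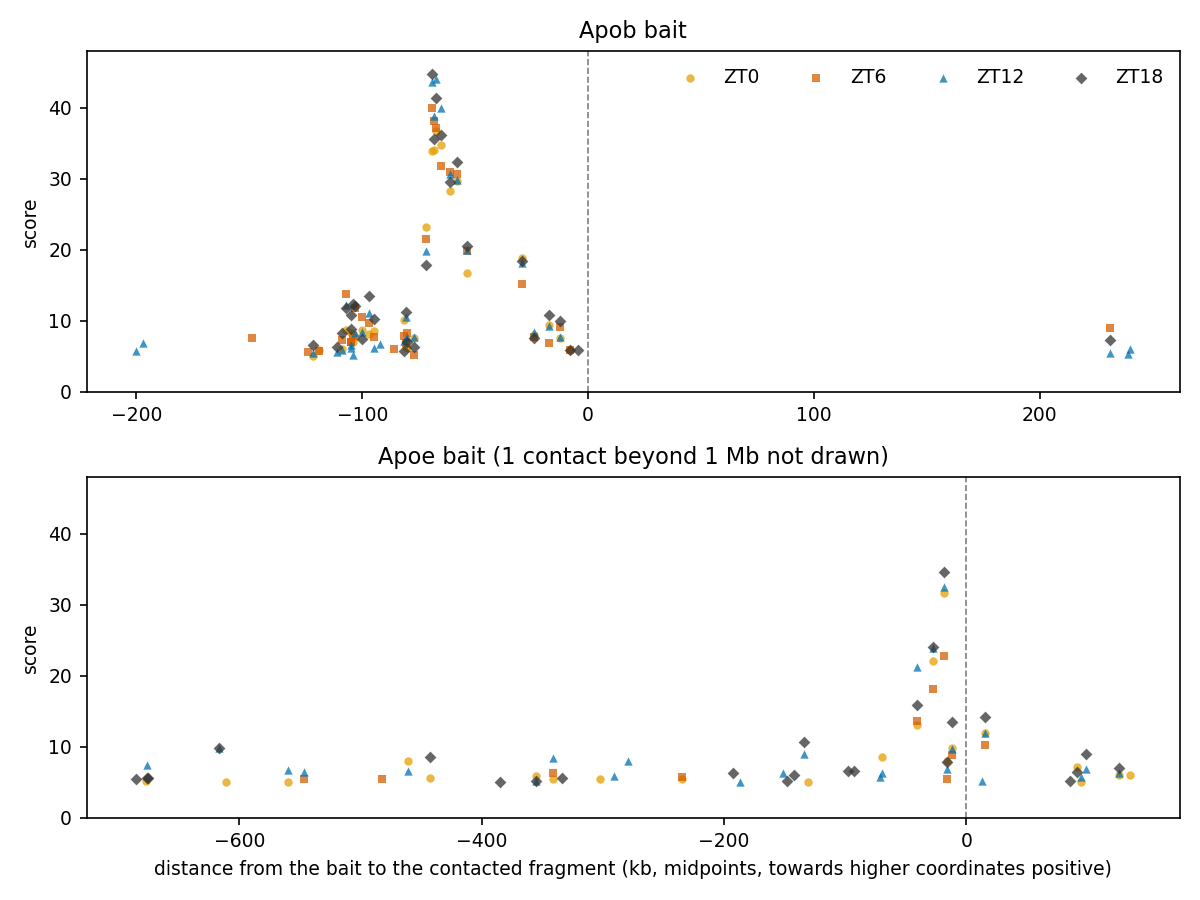
Each point is the score of a contacted fragment at a timepoint (vertical axis) against its distance from the bait in kb (horizontal axis), with Apob above and Apoe below, and the dashed line at the bait. Apob has a block of scores up to 44.74 at 53.4 to 80.6 kb upstream, while the contacts of Apoe more than 40.9 kb from its bait have scores of at most 10.66.

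Apoa2, a protein of high density lipoprotein, lies among genes of other functions on chromosome 1 (bait chr1:173154782-173158778). It had 18, 13, 18 and 13 contacts in order of time, and 11 of 21 (52.4%) were listed at all 4. The bait of 1700009P17Rik, 118 kb away, had scores of 13.92, 14.66, 10.15 and 11.2, and an exonic fragment of the same gene had 13.29, 13.61, 10.29 and 9.72, both higher at ZT0 and ZT6 than at ZT12 and ZT18. The bait of Nr1i3, a nuclear receptor for xenobiotics, which also holds the start of Tomm40l, had 11.41, 11.07, 12.26 and 12.95 at 7.85 kb. Fcer1g, an Fc receptor gene 6.51 kb away, had the contacts most like those of Apoa2 (16 shared fragments, 57.1% of the union). A RefSeq start of Apoa2 lies on that Nr1i3 bait, and the contacts of that bait were not counted here.

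Apom carries sphingosine 1-phosphate in high density lipoprotein. Its bait (chr17:35262629-35274001) also holds the starts of Bag6, D17H6S53E and Gm20522, and its contacts cannot be assigned to Apom alone. It had 11, 11, 16 and 18 contacts in order of time, and 6 of 25 (24%) were listed at all 4. Scores were low throughout, with 12.9 the highest. The pair with the bait of SNORA38 had 9.58, 8.02, 11.67 and 12.9, that with the bait of Atp6v1g2, a subunit of the vacuolar proton pump, had 11.11, 12.09, 5.95 and 8.37, and that with the bait of Vars and D17H6S56E-5 had 10.26, 8.4, 9.99 and 8.5. An exonic fragment of Atp6v1g2 had 5.96, 8.61 and 6.58 at ZT0, ZT12 and ZT18 and was not listed at ZT6, and an exonic fragment of C2 was listed at ZT12 only, at 8.37. The other promoter pairs in every list, with both baits of SNORD83 and that of Nfkbil1, had scores from 5.29 to 7.75. The bait of Prrc2a and Gm17705 was most like that of Apom, with 18 shared fragments (47.4% of the union).

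Apoh encodes a phospholipid-binding plasma protein, and the data went against its assignment to a bait. The start of its gene record (position 108204668 on chromosome 11) lies on the bait of Prkca, a protein kinase C gene, at chr11:108204142-108207043. Its other transcript starts lie 37.8 and 51.9 kb away on fragments that are not baits, as does its RefSeq start. The bait had no contact in the ZT0 list, 2 in the ZT6 list and 1 in each of the later lists. They were with Gm11657 (5.11 at ZT6 and 6.93 at ZT18) and Gm11655 (5.26 at ZT6 and 6.42 at ZT12), and 1 of them was shared with the Ccdc46 bait (12.5% of the union). These values describe the Prkca fragment and give nothing on the main Apoh promoter.

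Scores at ZT18 were often the highest. Of the 146 member pairs listed at all 4 timepoints, 66 (45.2%) had their highest score at ZT18, with 22, 34 and 24 at ZT0, ZT6 and ZT12, while 26% of all such pairs were highest at ZT18. This comparison was chosen after the scores were seen. A summary given with the study would put the list labelled ZT18 at ZT12 and the list labelled ZT6 at ZT18, and the labels were followed. The median scores of the 146 pairs were 9.75, 10.3, 10 and 11.3 in order of time, and over all pairs listed at all 4 they were 8.75, 8.95, 8.98 and 8.98. The median difference of ZT18 from ZT0 was 1.86, from ZT6 1.15 and from ZT12 1.14 for the members, and 0.23, 0.05 and 0.01 for all pairs. ZT6 differed from ZT0 by 0.615, ZT12 from ZT0 by 0.115 and ZT12 from ZT6 by -0.11 for the members.

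Of the 66 pairs highest at ZT18, most were pairs of Apoa4 or Apob. At Apoa4, 29 of 52 pairs (55.8%) were highest at ZT18, and at Apob 13 of 25 (52%). Of 1144 baits with at least 20 pairs listed at all 4 timepoints, 2.45% had a share as high as that of Apoa4 and 4.63% as high as that of Apob. Apoa5 had 38.1% and the Apoa1 and Apoc3 bait 34.8%, shares reached by 18.3% and 22.7% of those baits. The baits with fewer pairs ran from Apoe (4 of 6, 66.7%) and Apom (3 of 6, 50%) to Apoc1 (1 of 4, 25%) and Apoa2. At Apoa2, 1 of 11 pairs was highest at ZT18 and 6 were highest at ZT6. Baits beside the Apoa1 cluster had lower shares than Apoa4, with 37.9% at Bud13, 33.3% at Pafah1b2 and 25.5% at Sik3, whose pairs were most often highest at ZT0 (22 of 55). Beside Apoe, the share was 70% at Apoc2 (7 of 10), 42.9% at Clptm1 and 10.7% at Tomm40. Pairs of a bait share that bait's reads and their scores can move together, and 1 list per timepoint leaves no error for these shares.

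**Figure D4:**
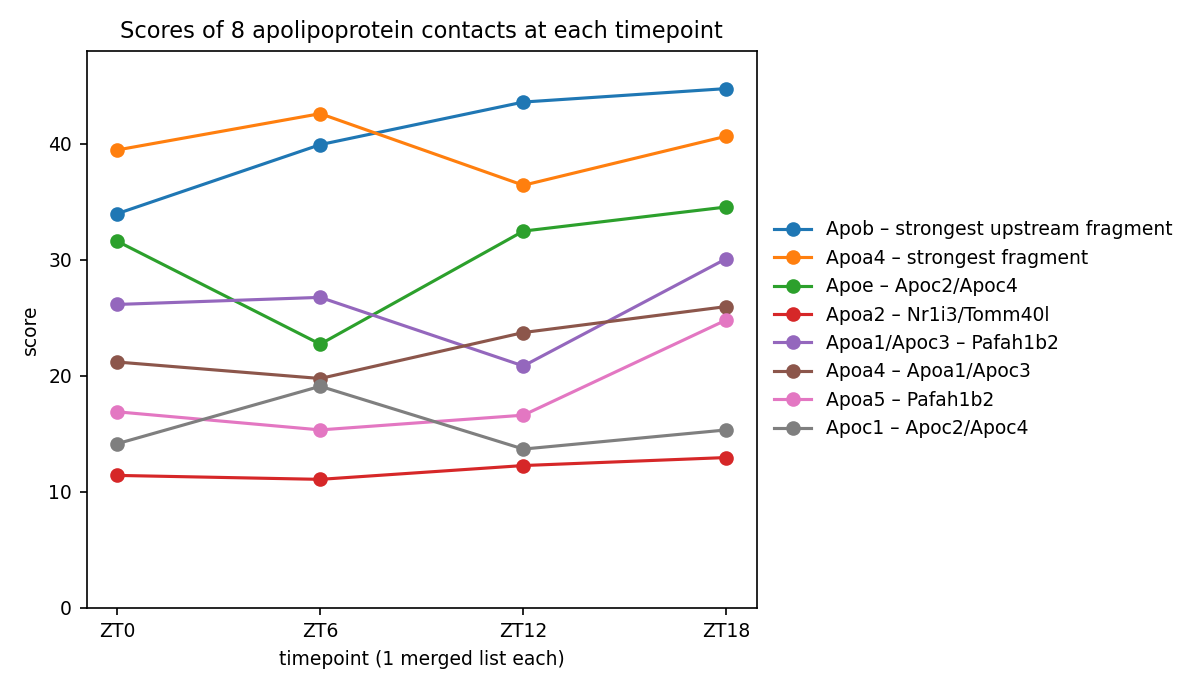
Lines give the scores of 8 pairs, the strongest or a chosen promoter pair of an apolipoprotein bait, at ZT0, ZT6, ZT12 and ZT18 (1 merged list each, no error). Apob runs from 33.96 at ZT0 to 44.74 at ZT18, Apoa2 with Nr1i3 and Tomm40l stays between 11.07 and 12.95, and Apoe with Apoc2 and Apoc4 is lowest at ZT6 at 22.72, where Apoc1 with the same bait is highest at 19.09.

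Other genes of lipoprotein metabolism had a lower median of contacts than the members, but the ranges overlapped. Of 58 genes of particle assembly, plasma lipases, lipid efflux, receptors, other apolipoproteins and regulators, 54 had their start on a bait, 52 baits in all, with a median of 13.5 contacts, and 34 of the 52 lay above the median of all baits. The 8 baits of assembly and export had a median of 27.5, with Tm6sf2, needed to load lipid onto particles, at 103 and Pdia4 at 2. Mttp, the transfer protein that loads lipid onto Apob, had 26 contacts, 10 of them at all 4. The 4 baits of efflux transporters had a median of 5.5, and Abcg5 and Abcg8 shared 3 contacts. The 11 baits of other apolipoproteins and lipoprotein proteins had a median of 12, from 3 to 49 (Clu), with 36.1% of their pairs at all 4. Nr1h3, a regulator, had 77 contacts, while among the members Apoc1 had 11 and the bait assigned to Apoh 2.

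Genes of other proteins that the liver secretes were set beside the members. The albumin family (Alb, Afp, Afm and Gc) had a median of 22 contacts, and 37.9% of its pairs were listed at all 4 timepoints. The 27 baits of coagulation and complement genes had a median of 17 and a share of 38.1%. The neighbours of both apolipoprotein clusters had a median of 42 contacts over 14 baits and a share of 50.8%. These include the Apoa5 bait, through Zfp259, and without it the 13 baits had a median of 43 contacts and a share of 51%. By bait the share ran from 23.1% at Bcam to 83.3% at Sik3 (55 of 66). Sik3 and Pafah1b2 (66 of 83, 79.5%), the baits most like Apoa4, lay above the 66.7% of Apoa4. Tomm40 beside Apoe had 151 contacts, more than any member, with 84 at all 4 timepoints. Its list was longest at ZT6 (129, 137, 102 and 111), the timepoint at which that of Apoe was shortest, and that of Relb was shortest at ZT6 as well (60, 43, 62 and 61). No pair joined a member to a gene of these lists outside its own cluster.

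**Figure D5:**
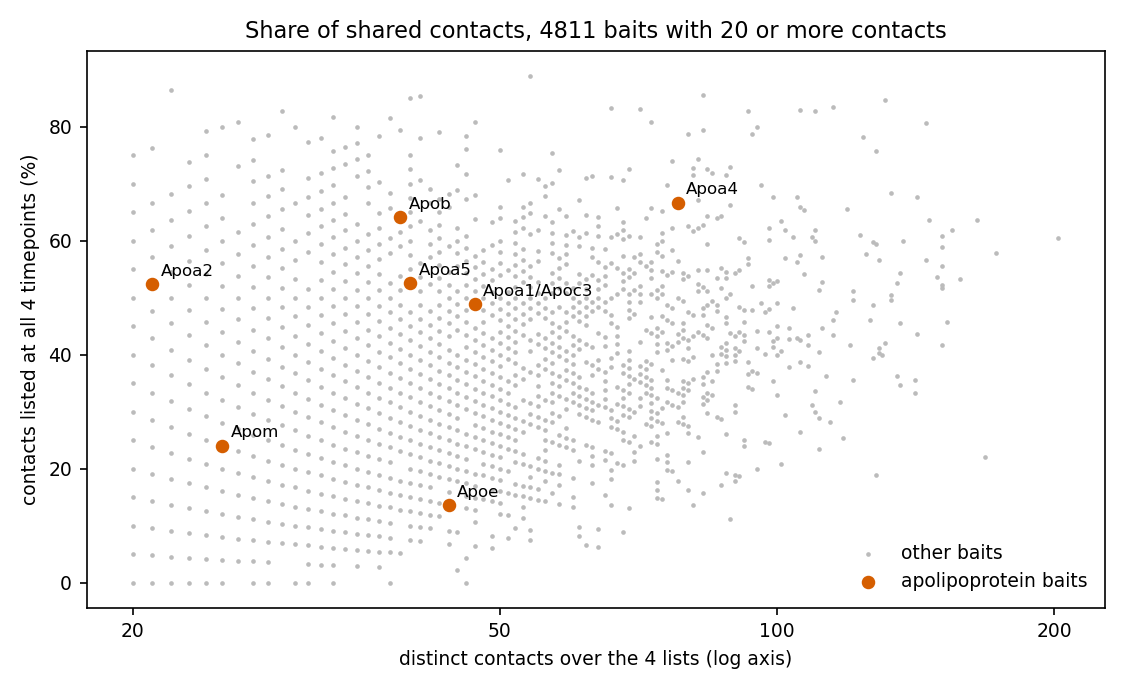
Each grey point is a bait with at least 20 contacts (4811 in all, some overlapping), by its number of distinct contacts (horizontal, log axis) and the percentage of them listed at all 4 timepoints (vertical), with the 7 apolipoprotein baits of that size in orange. Apoa4 and Apob lie high at 66.7% and 64.1%, and Apoe and Apom lie low at 13.6% and 24%.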

How the data were processed

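Promoter Capture Hi-C was measured in 16 liver samples at 4 timepoints. Per the study's methods, the authors mapped and filtered reads with HiCUP (mm9 per the labels) and called interactions with CHiCAGO on pools merged within a timepoint. Tool versions are not given in the sources used here. The deposited value of each fragment pair is a CHiCAGO score, derived by the authors' caller from weighted p-values, with a minimum of 5. Read depth was not analysed here, and it changes how many pairs pass this minimum.

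Timepoints were taken from the labels. A summary given with the study places 3 of the lists under other timepoints, and that order was tried too. Every statement on the order of scores or counts over time follows the labels and can change under the other order.

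Counts were made in python 3.11.15 (pandas 2.3.3, numpy 2.4.6). Pairs were treated as unordered, distances run between fragment midpoints, and a fragment given as bait in any list was taken as a bait throughout. Of 129887 listed fragments, 129886 were identical to an mm9 HindIII fragment. Shares have 95% Wilson intervals (scipy 1.17.1). With 1 list per timepoint no test was made. Counting was tested on simulated data of 200 baits, and all 200 were recovered. The text names every member, the 5 highest pairs of each bait, every pair between members, every promoter pair in all 4 lists, the most similar bait holding no member (by overlap of contacts), and genes of fixed lists, apart from a few items that are not reported here. The members and lists were chosen with earlier results of these data known. Settings tried besides were minimum scores of 7 and 10, all transcript starts, equal list lengths, a 10 kb tolerance, gaps in place of midpoint distances, and baits of the same timepoint.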

Additional observations from a re-analysis of the deposited data

How the results depend on the processing

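With a score of at least 7, the members had 194 distinct pairs, 133 at ZT0 and 137 at ZT12, and a median of 17 contacts per bait. With a score of at least 10 they had 124 pairs, 72, 79, 77 and 99 in the lists of ZT0, ZT6, ZT12 and ZT18, with 40.3% at all 4 timepoints, a median distance of 106 kb, a median of 11 contacts per bait, and 1 pair between member baits (Apoa4 with the Apoa1 and Apoc3 bait). Fewer pairs pass a stricter minimum by construction. Of all 53170 pairs with a score of at least 10 in any list, 18373 had it in all 4. Accepting another end within 10 kb raised the members' share at all 4 timepoints to 75%. By bait it ran from 0 of 2 contacts at Apoh and 20.5% at Apoe to 96.2% at Apoa4. The share over all pairs was not computed with this tolerance. With the main settings, the members' share was 41.7% without the Apoa4 bait and 53.8% without the Apoe bait, alternatives chosen after seeing the data. With the order of the lists that the study's summary has (the list labelled ZT6 read as ZT18, ZT12 as ZT6, ZT18 as ZT12), the data gave 0.11 for the median score difference of ZT18 from ZT6, against 1.15, and put the short list of Apoe at ZT18. The remaining 35 values under the alternatives stayed within 1.5 times the count or within the counting interval. No paired analysis was possible because interactions were called on merged pools, and for the same reason no replicate could be left out. Depth limits every statement on absence: a pair just under the minimum is not listed.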
